A study of Mus musculus with 8 samples.

Results

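The genes described here encode the proteins of the cytosolic ribosome. They were chosen by symbol: every mouse gene whose RefSeq accession on the array gave a name of the Rps, Rpl or Rplp series or Rpsa, with the S6 kinases and pseudogenes left out and the brightest probe taken for each gene. The rule used no measured value of the LECT2 response, and it found 82 genes, 31 of the small and 51 of the large subunit. Of these, 81 passed the filter on dim probes and were tested among 26148 genes in all. The exception was Rpl3l, a paralog of Rpl3 that is made mainly in muscle. Rps23 and Rpl32l had no probe with a matching accession and were not analysed here.

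The cells were mouse peritoneal macrophages, the phagocytes of the abdominal cavity, cultured in low-glucose medium with serum. They received LECT2, a chemotactic factor that hepatocytes release into the blood, at 0.5 µg/ml, the low dose, or at 5 µg/ml, the high dose, for 48 h or 3.5 h, and each such culture was set against cells given 0 µg/ml for the same time. Each of the 4 groups had 2 Agilent arrays of 2 colours from independent experiments with different mice, called array 1 and array 2 after the replicate number. LECT2 RNA carried Cy3 and control RNA carried Cy5 on all 8 arrays. A constant difference between the dyes and the LECT2 response therefore cannot be told apart within a group. The early time is 3.5 h in the titles but 3 h in the channel labels, and strain, sex and age of the mice are not given in the sources used here.

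A ribosome is built from ribosomal RNA and one copy of most of these proteins, so their transcripts are abundant and are usually made in step with one another. Small-subunit proteins surround the decoding site and the path of the mRNA. Large-subunit proteins surround the peptidyl transferase centre and the exit tunnel, and the stalk proteins recruit elongation factors. Many of the mRNAs begin with a C followed by a run of C and T letters, the terminal oligopyrimidine or TOP motif, through which mTOR and the RNA-binding protein LARP1 control their translation and stability.

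Promoter windows of 7 of the members named below are printed to show where such a run stands at the annotated start. Each is 60 bases from RefSeq (GRCm38.p6), 40 before the start and 20 from it, read along the gene's own strand, with a run of at least 7 C or T letters in capitals where one touches the 10 bases on either side of the start. Rps6 (chr4:86857348-86857407, minus strand), Rpl12 (chr2:32961672-32961731, plus strand) and Rpl13 (chr8:123102310-123102369, plus strand) hold one, and they were lower with the high dose at 3.5 h. Rps7 (chr12:28635934-28635993, minus strand) was lower in the same group and has no such run touching those 20 bases. The same holds for Rpl5 (chr5:107900488-107900547, plus strand), Rpsa (chr9:120127726-120127785, plus strand) and Rpl7l1 (chr17:46782637-46782696, minus strand), which changed with the high dose at 48 h. Runs further from the start, as in the Rps7, Rpl5 and Rpl7l1 windows, are not in capitals and were not counted. Not printed are Rps3a1 and Rpl6, without a run, and Rpl14 and Rpl19, with a run, which also fell at 3.5 h.
Rps6: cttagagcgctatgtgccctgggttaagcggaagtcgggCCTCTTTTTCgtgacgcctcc
Rpl12: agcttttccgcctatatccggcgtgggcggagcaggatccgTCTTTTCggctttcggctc
Rpl13: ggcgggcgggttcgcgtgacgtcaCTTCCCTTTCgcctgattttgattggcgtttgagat
Rps7: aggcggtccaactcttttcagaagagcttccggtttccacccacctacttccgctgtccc
Rpl5: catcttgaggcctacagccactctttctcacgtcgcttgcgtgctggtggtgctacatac
Rpsa: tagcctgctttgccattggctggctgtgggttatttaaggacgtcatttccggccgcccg
Rpl7l1: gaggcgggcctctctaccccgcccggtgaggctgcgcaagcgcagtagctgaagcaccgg

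The promoter table held windows for 62 of the 82 members, 74 windows in all. A run of at least 7 C or T letters touched the start in 35 of these 74 windows (47.3%), against 19.7% of the 32851 windows of all genes. On the opposite strand, where the run reads as A or G, the shares were 8.11% of the members' windows and 21.7% of all windows. Among mitochondrial ribosomal protein genes, whose products work on a separate ribosome, 16.2% of 74 windows held a C or T run. Annotated starts can differ from the start used in macrophages, and a run of letters is a description of the window, not a site.

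All values below are log2 ratios of LECT2 over control from the deposited table with its sign turned round, so a positive value means more transcript with LECT2. A gene is said to have risen or fallen only where limma's adjusted p, over all 26148 genes, was under 0.05. Errors are standard errors of the fit for a group mean (n = 2 arrays). On the log2 scale the median standard error of the members was 0.29 in a group and 0.41 when groups were compared, so the number of arrays limits what can be seen. The ribosomal protein spots were bright: 75 of the 81 genes were among the 2615 brightest of all genes tested, 80 were well above background in both channels on all 8 arrays (Rpl39l was not), and 0 spots were saturated. In RNA of a whole culture, less transcript per cell and fewer cells of a type cannot be told apart.

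Before the results, 3 facts about the arrays bear on all of them. For 7 of the 8 deposited columns the best-matching scanner file belongs to a different sample by its record, and the column of low dose, 3.5 h, array 1 follows its own file at only r = 0.782. In the matched link slide 1 holds the 3.5 h arrays and slide 2 the 48 h arrays, so time and slide cannot be told apart, and with the files as they are recorded 0 members passed in any comparison. Of 10 macrophage markers 9 passed the filter and none of these was dim in all arrays of a group, while Cd68 did not pass. Markers of mesothelium and fibroblasts had medians between -1.07 and -0.75 in the 4 groups, those of T and NK cells between 0.42 and 0.67, those of B cells between -0.57 and 0.06, and those of granulocytes and mast cells (7 of 8 passed) between -0.38 and 0.03. The 4 of 7 red blood cell markers that passed had medians of 0.44 and 0.36 at 48 h and of 0.55 and 1.31 at 3.5 h, for the high and the low dose in each case. The summed signal of the 10 mesothelial and fibroblast markers in the high dose group at 3.5 h was log2 14.81 to 14.83 in the LECT2 channel, against 14.93 to 16.27 in the control channel. Their part in the results below was not tested.

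**Figure D1:**
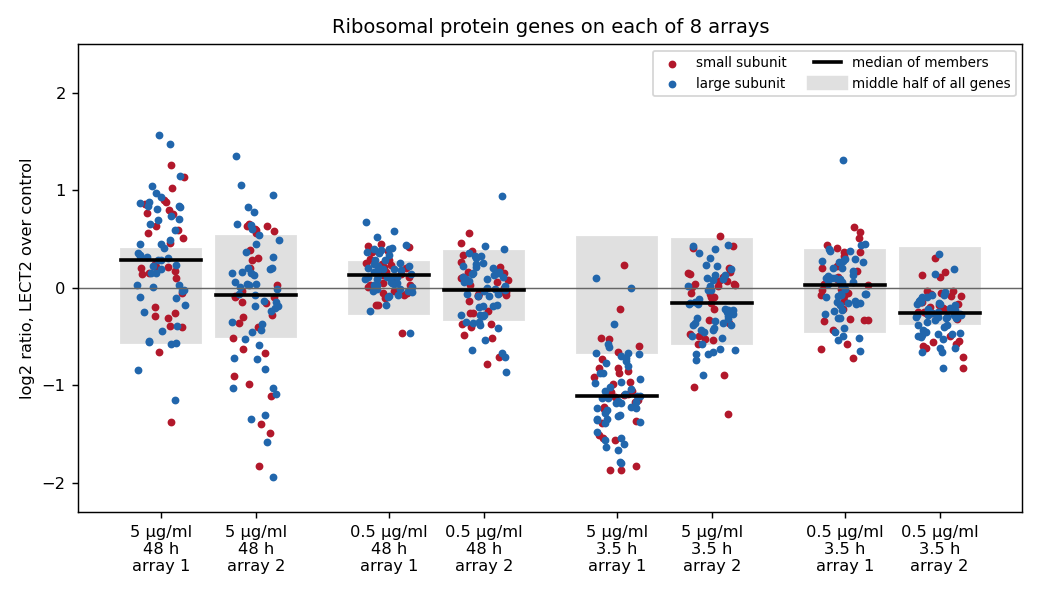
Each point is 1 ribosomal protein gene on 1 array (vertical axis, log2 ratio of LECT2 over control; horizontal axis, dose, time and array), red for the small and blue for the large subunit; black bars are the members' medians and grey boxes the middle 50% of all genes tested. On array 1 of the high dose at 3.5 h the median is -1.11 and 79 of 81 genes are below 0, while on array 2 of that group the median is -0.15. The medians of the 48 h arrays lie between -0.08 and 0.29, and both group medians at 48 h turn negative (-0.57 and -0.56) when the matched scanner files are centred on their median.

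With the high dose at 3.5 h, 9 ribosomal protein genes fell and 0 rose (limma; 34 at an unadjusted p under 0.05, against 37.3% of all genes). That is 11.1% of the 81 tested, against 11.7% of all genes called lower, 10.2% called higher and 21.9% called in either direction, so the share that fell was close to that of all genes. The family's median was -0.62, against -0.03 for all genes and -0.23 for the 2615 brightest genes. It differed between the arrays of the group. On array 1 the median was -1.11, 79 of 81 genes were below 0 and 49 were below -1. On array 2 the median was -0.15, with 51 genes below 0, 30 above and 2 below -1. Array 1 was below array 2 in 76 of the 81 genes, and 51 genes were below 0 and 2 above 0 on both arrays, where 36.8% and 37.2% of all genes were. With 2 arrays in the group, leaving out array 1 or array 2 returns the family's median on the other, -0.15 or -1.11. Leaving 1 out is therefore no separate check.

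Among the small-subunit genes 3 of 31 fell. Rps3a1 encodes a protein on the side of the subunit where the mRNA leaves. Its values were -1.88 and -1.30 on arrays 1 and 2, and it fell 3.00-fold (log2 -1.59 ± 0.26, limma adjusted p = 0.00686). It was the lowest member on both arrays of the group. Rps7, a small-subunit protein that can also bind the p53 regulator Mdm2, stood at -1.87 and -1.01 and fell 2.72-fold (log2 -1.44 ± 0.29, limma adjusted p = 0.0131). Rps6, the protein phosphorylated by S6 kinases downstream of mTOR, stood at -1.51 and -0.90 and fell 2.30-fold (log2 -1.20 ± 0.28, limma adjusted p = 0.0232). In all 3 genes both arrays were below 0, with array 1 the lower. For Rps6 the mean over its probes was -0.87 and did not pass (limma adjusted p = 0.0711).

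Among the large-subunit genes 6 of 50 fell. Rpl13 stood at -1.48 and -0.90 and fell 2.28-fold (log2 -1.19 ± 0.23, limma adjusted p = 0.0114), and both of its other probes were also lower, at -0.93 and -1.08. Rpl12, which sits at the base of the stalk, stood at -1.80 and -0.50 (log2 -1.15 ± 0.33, limma adjusted p = 0.0443), and without low dose, 3.5 h, array 1 in the fit it did not pass (limma adjusted p = 0.0532). Rpl19, which forms a bridge to the small subunit, stood at -1.32 and -0.68 and fell (standard error 0.24 on the log2 scale, limma adjusted p = 0.0250). In these 3 genes array 2 was the closer to 0, most of all for Rpl12. Rpl6, Rpl7 and Rpl14 fell by 0.95, 0.90 and 0.88 on the log2 scale, with limma adjusted p from 0.0302 to 0.0394, and Rpl7 missed the threshold without low dose, 3.5 h, array 1 (limma adjusted p = 0.0532). With the mean of all probes of a gene, Rpl6 (-0.50, limma adjusted p = 0.128), Rpl12 (0.0659) and Rpl14 (0.0602) no longer passed. One of the 3 other Rpl6 probes stood at 0.76, not past the threshold, while the others were at -1.02 and -0.79. Of the 13 other probes of the 9 called genes, 12 had the same sign.

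The other members of this group mostly lay between 0 and -1. Rps19, which is mutated in Diamond-Blackfan anaemia in humans, stood at -1.55 and -0.54 and just missed the threshold (limma adjusted p = 0.0501; 0.0487 without low dose, 3.5 h, array 1). Rpl5 and Rpl11, which bind the smallest ribosomal RNA and can hold Mdm2, stood at -0.98 and -0.66, and at -0.94 and 0.20. Rpl13a, known in human monocytes for leaving the ribosome after interferon gamma, stood at -1.23 and -0.02. The stalk proteins gave -0.37 and -0.44 for Rplp0, -0.67 and 0.42 for Rplp1, and -1.02 and 0.13 for Rplp2. Rpsa, also known as the laminin receptor precursor, was at -0.51 and -0.53. Of these genes Rplp0, Rpl5, Rps19, Rpl13a and Rpsa were below 0 on both arrays, and none passed the threshold. Rpl5, like Rps19, was close to it (limma adjusted p = 0.05265). A total of 4 members had means above 0: Rps3, a protein at the mRNA entry (0.24 and 0.04), Rpl21 (0.10 and 0.08), Rps27l (-0.22 and 0.41) and Rpl7l1 (-0.01 and 0.13). The Rpl21 probe was dim, with log2 signals of 8.09 to 8.28 in this group, against 13.72 to 13.97 for Rps3. The other Rpl21 probe, not above background in both channels on every array, was at -1.47 (limma adjusted p = 0.0410 over all probes). Rps3 turned to -0.68 (limma adjusted p = 0.0401) when the matched files were centred on their median, a scaling under which the family's median was -1.45 and that of all genes -0.26.

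**Figure D2:**
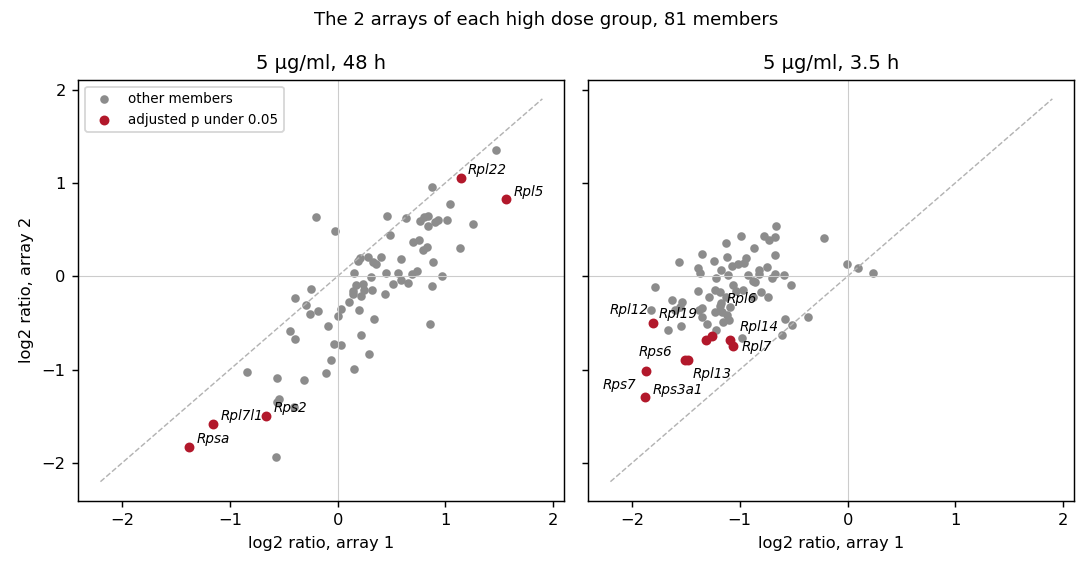
Each point is 1 of 81 ribosomal protein genes, with its log2 ratio on array 1 (horizontal) against array 2 (vertical) of the high dose group at 48 h (left) and at 3.5 h (right); red points passed the threshold and the dashed line marks equal values. At 3.5 h nearly all points lie above the dashed line, since array 1 was below array 2 in 76 of 81 genes. At 48 h the points spread from Rpsa at the low end to Rpl24, Rpl5 and Rpl22 at the high end, and most lie below the dashed line, since array 1 was above array 2 in 75 of 81 genes.

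With the high dose at 48 h the family did not move as a block: 2 ribosomal protein genes rose and 3 fell (limma; 21 at an unadjusted p under 0.05, against 29.4% of all genes). Together these are 6.17% of 81, against 11.2% of all genes called (4.31% higher and 6.91% lower), a share below that of all genes. The median of the members was 0.17, with 0.29 on array 1 and -0.08 on array 2, and all genes had a median of -0.01; with median centring of the matched files the members' median turned to -0.57 and that of all genes to -0.24. The direction split of the calls moved with the scaling: 6 rose and 5 fell with loess on the matched files, and 0 rose and 25 fell with median centring. The shares of all genes called under these scalings are not given here, so these counts have no background to be read against. Both arrays ordered the members alike, with array 1 above array 2 in 75 of the 81. Pearson's r between them was 0.83 over the 81 members, a description over genes that share the same RNA and slide, and 0.62 over all genes; in the other groups r over the members was 0.21, 0.46 and 0.34. There were 35 genes above 0 on both arrays and 21 below 0 on both, where 32.8% and 35.9% of all genes were.

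Rpsa gave the largest called fall at 48 h. It stood at -1.37 and -1.82 on arrays 1 and 2 and fell 3.03-fold (log2 -1.60 ± 0.27, limma adjusted p = 0.0157). Its other probes lay at -2.31, -1.32 and -0.60, the last of them not above background on every array. Rpl7l1, a paralog of Rpl7, stood at -1.15 and -1.58 and fell 2.58-fold (log2 -1.37 ± 0.24, limma adjusted p = 0.0172). Rps2, at the mRNA entry of the small subunit, stood at -0.66 and -1.49 (log2 -1.08 ± 0.28, limma adjusted p = 0.0490), and its other probe was at -0.93. The Rps2 call ended when low dose, 3.5 h, array 1 was left out of the fit (limma adjusted p = 0.0597). All 3 genes were below 0 on both arrays, with array 2 the lower.

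Rpl5 rose. It stood at 1.56 and 0.83, 2.29-fold higher with LECT2 (log2 1.20 ± 0.25, limma adjusted p = 0.0269). Rpl22, a large-subunit protein that T cell development depends on in mice, stood at 1.14 and 1.06, 2.14-fold higher (log2 1.10 ± 0.26, limma adjusted p = 0.0359). Both arrays were above 0 for both genes. The other Rpl22 probe stood at -0.37, and the mean of its probes was 0.37 (limma adjusted p = 0.385), so the Rpl22 call rests on 1 probe. Under median centring Rpl5 and Rpl22 were at 0.40 and 0.35 and did not pass. Without either array of the group 0 members were called at 48 h.

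Other members at 48 h had large values that did not pass. Rpl24, which bridges the subunits and whose loss of function gives the belly spot and tail mouse, had the highest mean of the family at 1.47 and 1.35 (log2 1.41 ± 0.38, limma adjusted p = 0.0554); it is named here after its values were seen. Rpl24 also stood at 1.31 on array 1 and -0.30 on array 2 of the low dose at 3.5 h, the widest gap between arrays that enters its error. Rpl41, the shortest of the ribosomal proteins, stood at -0.58 and -1.94. Of the stalk proteins Rplp0 was at -0.54 and -1.31, Rplp1 at -0.84 and -1.03 and Rplp2 at -0.04 and -0.72; all 3 were below 0 on both arrays and none was called (limma adjusted p from 0.0627 to 0.469), but Rplp0 passed with the replicate number as a block (limma adjusted p = 0.0472) or with the mean of its probes (0.0462). Rps3a1, Rps7 and Rps6, lowest of the family at 3.5 h, stood above 0 on both 48 h arrays: 1.25 and 0.56 for Rps3a1, 1.02 and 0.60 for Rps7, and 1.13 and 0.31 for Rps6. Rpl13a was at 0.80 and 0.64, Rpl11 at 0.15 and -0.19, Rps3 at -0.20 and 0.63, and Rps19 at -0.39 and -0.67. Rps3 and Rpl11 had arrays on either side of 0.

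**Figure D3:**
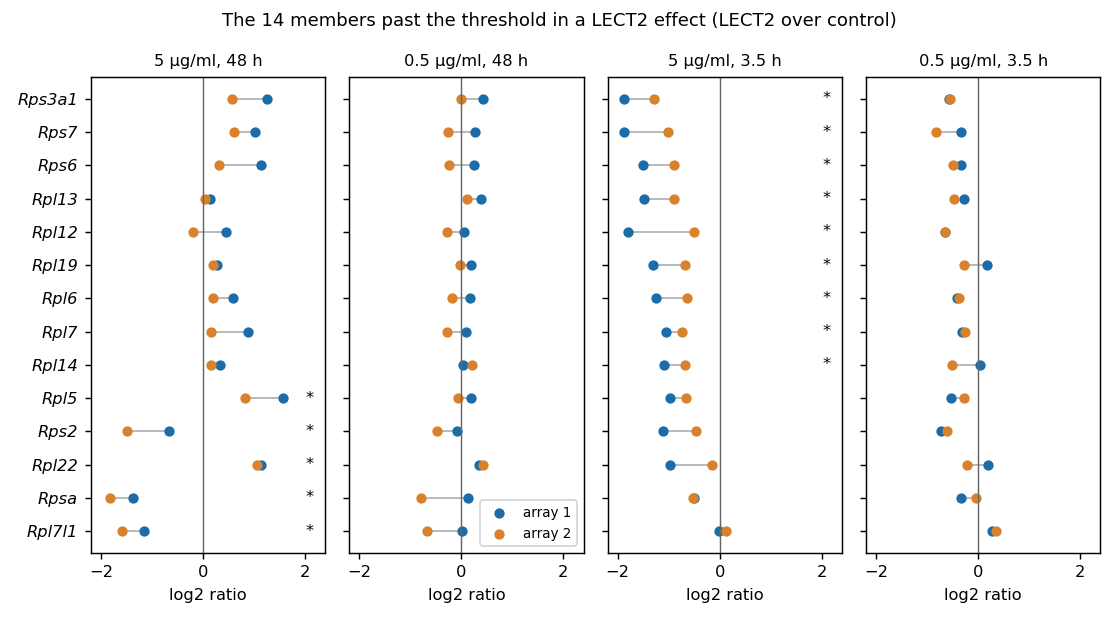
Log2 ratio of LECT2 over control (horizontal) on array 1 (blue) and array 2 (orange) for the 14 genes that passed the threshold in at least 1 group, marked by an asterisk in the group where they passed. The genes that fell with 5 µg/ml at 3.5 h lie mostly right of 0 at 48 h, and Rpsa, Rpl7l1 and Rps2 lie furthest left there; under median centring Rpl5 and Rpl22 no longer pass.

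With the low dose at 48 h, 0 members passed the threshold (limma; 0 at an unadjusted p under 0.05, against 10.1% of all genes), where 0.172% of all genes did (0.153% higher and 0.0191% lower). The median was 0.07, with 0.13 on array 1 and -0.03 on array 2, and it turned to -0.56 under median centring (all genes -0.14). The 4 largest values were those of Rpl41 (-0.47 and -0.87), Rpl39l, a paralog enriched in testis (0.39 and 0.94), Rpl13a (0.58 and 0.40) and Rps15, a small-subunit protein near the decoding site (-0.46 and -0.52). Each had both arrays on the same side of 0. There were 30 members above 0 on both arrays and 11 below, where 30% and 29% of all genes were.

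With the low dose at 3.5 h, 0 members passed (limma; 1, Rps2, at an unadjusted p under 0.05, against 22.2% of all genes), where 4.89% of all genes did (2.75% higher and 2.15% lower). The median was -0.11, with 0.03 on array 1 (40 of 81 below 0) and -0.26 on array 2 (74 of 81 below 0). There were 36 members below 0 on both arrays and 3 above 0 on both, where 32.8% and 33.4% of all genes were. The 4 largest values were Rps14, whose loss underlies the anaemia of human 5q- syndrome, at -0.63 and -0.71, Rps2 at -0.72 and -0.60, Rpl12 at -0.65 and -0.66 and Rps7 at -0.34 and -0.82. The first 3 repeated closely between arrays. Under loess of the matched files 1 member was lower and under median centring 17 were, and the shares of all genes under these scalings are not given here.

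The difference between doses was tested directly. At 48 h, high minus low, 0 members passed (limma; 4 at an unadjusted p under 0.05, against 10.5% of all genes), with a median difference of 0.03, and 0% of all genes passed. At 3.5 h 0 members passed as well (limma; 4 at an unadjusted p under 0.05, against 7.83% of all genes; 0% of all genes passed), with a median difference of -0.47, and 80 of the 81 members had a lower mean at the high than at the low dose. So did 13602 of all 26148 genes (median difference -0.03) and 1705 of the 2615 brightest genes (-0.16). Of 77 mitochondrial ribosomal proteins 70 did (-0.42), so the shift was not particular to the family. The arrays of the dose groups overlapped in the medians of the cytosolic members. These were -1.11 and -0.15 with the high dose, and 0.03 and -0.26 with the low dose. The lower group median thus goes with array 1 of the high dose. At 3.5 h the largest difference was that of Rps3a1, at -1.88 and -1.30 with the high dose and -0.58 and -0.54 with the low dose (difference -1.03 ± 0.37, limma adjusted p = 0.602). For Rps3a1, picked as the largest difference of the 81 members, the arrays of the doses did not overlap. How many of all genes show no overlap was not counted. Labels do not say whether the arrays of both doses share control RNA.

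Between times, 48 h minus 3.5 h, the high dose effect differed in 7 members (limma; 30 at an unadjusted p under 0.05, against 27.9% of all genes), 6 of them higher at 48 h and 1 lower. That is 8.64% of the members, against 8.3% of all genes (4.52% higher and 3.78% lower), so the count of calls was near that of all genes. The median difference was 0.64 for the members and -0.04 for all genes. The deposited 48 h columns equal scanner file ratios and the 3.5 h columns do not. In these values time, slide and the making of the columns cannot be told apart. Of the 77 members with means below 0 at 3.5 h, 46 had means above 0 at 48 h and 31 below. These signs depend on the scaling, as the members' 48 h median was negative under median centring of the matched files. The share of all genes that changed sign in this way was not counted. Differences on the log2 scale were 2.49 ± 0.37 for Rps3a1 (limma adjusted p = 0.0169), 2.25 ± 0.41 for Rps7 (0.0242), 2.02 ± 0.35 for Rpl5 (0.0229), 1.92 ± 0.40 for Rps6 (0.0333) and 1.66 ± 0.36 for Rpl22 (0.0366). For each of these 5 genes both arrays at 48 h lay above both arrays at 3.5 h. They were picked by this same difference, so that order is no separate support, and its share over all genes was not counted. The sixth was Rps15a, a small-subunit protein, at 0.90 and 0.59 at 48 h, against -1.22 and -0.58 at 3.5 h (difference 1.64 ± 0.38, limma adjusted p = 0.0435), named after its values were seen. Rpl7l1 was the only one lower at 48 h (difference -1.43 ± 0.34, limma adjusted p = 0.0465), and its call ended without low dose, 3.5 h, array 1 (limma adjusted p = 0.0601). With the mean of all probes Rps6 (1.43, limma adjusted p = 0.0752) and Rpl22 (1.11, 0.101) did not pass, nor did Rps15a (1.21, 0.0803). With median centring 13 were higher and 0 lower, and the share of all genes under that scaling is not given here. Without array 1 or without array 2 of these groups 0 members passed. For the low dose 0 members differed between times (limma; 0 at an unadjusted p under 0.05, against 10.4% of all genes), where 0.0994% of all genes did (0.0153% higher and 0.0841% lower), with a median difference of 0.18.

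Paralogs of ribosomal proteins were set beside the gene they resemble. At 48 h with the high dose Rpl7l1 was at -1.37 ± 0.24 and Rpl7 at 0.52 ± 0.25. Rpl22l1, a paralog whose mRNA the Rpl22 protein represses in mice, was at -0.32 ± 0.27, and Rpl22 at 1.10 ± 0.26. The other Rpl22 probe stood at -0.37, so the gap within this pair rests on 1 Rpl22 probe. Rps27l, a p53 target, was at 0.68 ± 0.25 and Rps27 at -0.30 ± 0.27. Only Rpl7l1 and Rpl22 among these passed the threshold, and the difference within a pair was not tested; under median centring Rpl22l1 was at -1.01 and passed, and Rpl22 did not. Rpl39l was at 0.91 ± 0.37 and Rpl39 at 0.08 ± 0.34, and Rpl10l, a paralog used in male germ cells, at -0.51 ± 0.26 and Rpl10 at -0.57 ± 0.31. At 3.5 h with the high dose Rpl7l1 and Rps27l stood at 0.06 ± 0.24 and 0.09 ± 0.25, while Rpl7 was at -0.90 ± 0.25 and Rps27 at -0.46 ± 0.27. Some of these sequences are close enough that a probe may read both genes of a pair.

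Several probes per gene gave a second reading for 51 members, with up to 7 probes each and 86 other probes in all. The median absolute gap between the chosen probe and another of the same gene was 0.16 at 48 h and 0.17 at 3.5 h with the high dose. The largest gaps were 1.467 and 1.725. One Rpl27a probe, above background in both channels on all arrays, was higher at 3.5 h (1.18, limma adjusted p = 0.0219 over all probes). The chosen Rpl27a probe was at -0.55 and the remaining one at -0.75. At 48 h 4 of the 5 other probes of called members had the same sign, and for the time difference 6 of 6. Pseudogenes and near-identical copies are common among ribosomal protein genes, and a probe may read them too.

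The C or T run at the start was set against the LECT2 effect as a description. Of the 9 members that fell with the high dose at 3.5 h, 8 have a promoter window and 5 of these hold a run (Rpl12, Rpl13, Rpl14, Rpl19 and Rps6). Rpl19 has windows with longest runs of 5 and of 11 letters, and only the latter counts as a run. None of the 5 members called with the high dose at 48 h holds one. Among all members with a window, 34 of 62 genes hold one. At 3.5 h the median effect of the high dose was -0.64 in the 34 tested members with a run and -0.70 in the 27 without. At 48 h the medians were 0.14 with a run and 0.21 without.

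Other translation genes were read beside the family, with the high dose. Rack1, a scaffold on the small subunit whose name falls outside the rule, did not pass in either group. It stood at -0.03 and -0.49 at 48 h and at -0.78 and -0.48 at 3.5 h. Of 15 elongation factors and other genes with TOP mRNAs 2 fell at 3.5 h, Eef1a1 (-0.61 and -1.40) and Eef1b2 (-1.26 and -0.53), which deliver aminoacyl-tRNA and recharge that carrier, and 1 fell at 48 h, Eef1g (-0.76 and -1.13). Eef1a1 was lower on array 2 than on array 1, as only 5 of the 81 ribosomal protein genes were. These are 13.3% of the list at 3.5 h and 6.67% at 48 h, against 11.7% and 6.91% of all genes called lower. Of 77 mitochondrial ribosomal proteins 12 fell (15.6%, against 11.7% of all genes) and 0 rose at 3.5 h, with medians of -0.65 on array 1 and -0.17 on array 2. At 48 h 3 rose and 3 fell, 7.79% of the list against 11.2% of all genes called. Mrps35 (-2.05 and -1.17) and Mrps15 (-1.95 and -1.11) had the largest falls at 3.5 h.

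**Figure D4:**
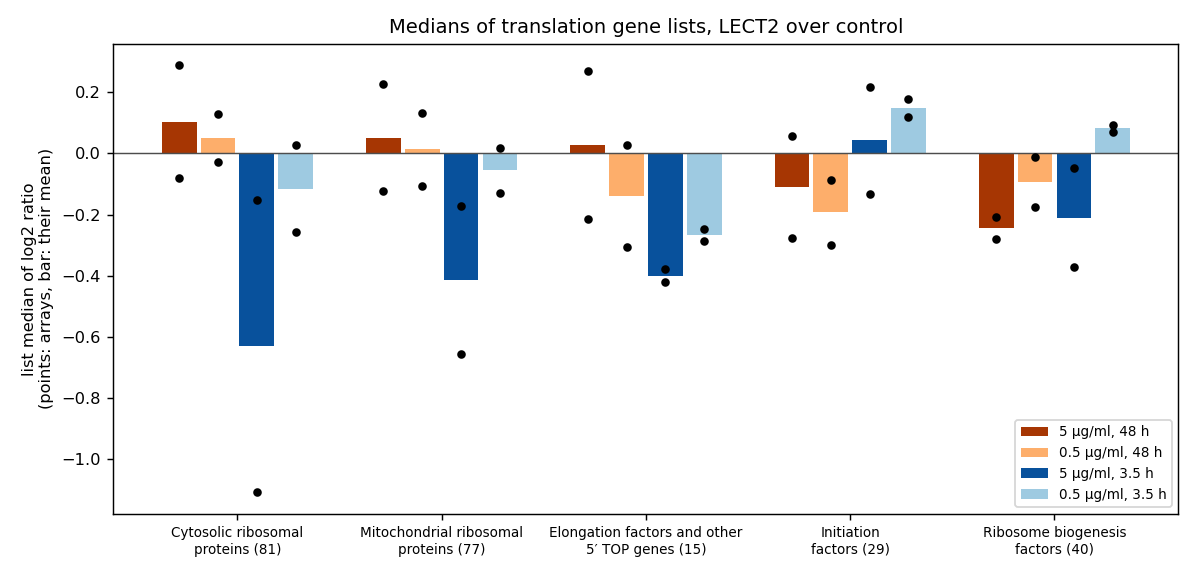
Median log2 ratio of LECT2 over control (vertical axis) for 5 gene lists, with the number of genes tested in brackets; points are the medians on each array and bars, starting at 0, the mean of both points. Cytosolic and mitochondrial ribosomal proteins both have a lower median on array 1 than on array 2 at 5 µg/ml and 3.5 h, -1.11 and -0.15 for the cytosolic and -0.65 and -0.17 for the mitochondrial ones.

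Genes that act before and around the ribosome were read against the shares of all genes called with the high dose, 11.2% at 48 h and 21.9% at 3.5 h. Initiation factors were called in 17.2% at both times, biogenesis factors in 7.5% at 48 h and 12.5% at 3.5 h, and the RNA polymerase I machinery in 16.7% at 48 h and 0% at 3.5 h, counts of a few genes each. Of 29 initiation factors 2 rose at 3.5 h with the high dose, Eif6 (1.15 and 1.45), which keeps free large subunits apart, and Eif1 (1.15 and 1.28), which selects the start codon, and 3 fell, among them Eif4a2 (-1.40 and -0.88). At 48 h 1 rose, Eif3m (1.03 and 1.03), and 4 fell, among them Eif4a1 (-1.35 and -1.53), the helicase that unwinds mRNA leaders. Of 40 ribosome biogenesis factors 2 rose at 3.5 h, Riok2 (4.99 and 4.33), a kinase of small-subunit maturation, and Bop1 (1.64 and 1.39), and 3 fell, among them Rrp1b (-2.22 and -1.78) and Dkc1 (-1.70 and -1.63), the pseudouridine synthase of ribosomal RNA. At 48 h 0 rose and 3 fell, among them Nop2 (-1.30 and -1.68). Of 12 genes of the RNA polymerase I machinery, which transcribes ribosomal RNA, 2 fell at 48 h, Polr1a (-1.14 and -1.72) and Taf1c (-0.86 and -1.09), and 0 passed at 3.5 h (limma; 2 at an unadjusted p under 0.05).

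Among 22 genes of the Myc network and of growth signalling, 3 rose and 7 fell at 3.5 h with the high dose, 45.5% of a list chosen with earlier results known, against 21.9% of all genes called. Mxd1, an antagonist of Myc, rose (2.92 and 2.07), and so did Ddit4, an inhibitor of mTOR (1.91 and 1.55), and Larp1 (1.09 and 0.74). Of the 7 that fell, 2 are named: Mnt, another Myc antagonist (-2.61 and -1.76), and Deptor, an mTOR inhibitor (-1.43 and -2.07). At 48 h 3 rose, Ddit4 (2.64 and 1.51), Mxd1 (2.09 and 1.49) and Larp1 (1.05 and 1.06), and 1 fell, Mxd4 (-0.89 and -1.44), together 18.2% of the list against 11.2% of all genes. Myc itself did not pass in any group and stood at -1.05 and -1.18 at 48 h and at -1.26 and -1.16 at 3.5 h with the high dose. Its low dose arrays at 3.5 h, which enter its error in every group, disagreed, at 1.26 and -1.45. Eif4ebp1, a repressor of cap-dependent translation, stood at 0.89 and 0.49 at 48 h and at -0.74 and -0.02 at 3.5 h.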

How the data were processed

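Per the labels, RNA was amplified, labelled and hybridised to Agilent arrays, and per the submitters' processing notes slides were read with Agilent Feature Extraction 10.7.3.1. The deposited value table holds log2 ratios of control over LECT2, and how it was made is not given in the sources used here. The deposited scanner files hold the intensity of each channel and log10 ratios of Cy5 over Cy3. The 48 h columns equal these ratios, converted to log2, within 0.01 for over 99.5% of probes above background in both channels, and the 3.5 h columns follow their best-matching files at r = 0.994, 0.978, 0.974 and 0.782.

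Probes were named through RefSeq (GRCm38.p6; the array annotation is on mm9), and 26412 of 39429 were named. A probe was kept if 2 of 8 arrays or more had it well above background for LECT2 or control RNA, and the brightest was taken for each gene. The share of spots above background was 56.4% to 71.7% for LECT2 RNA and 63.6% to 82.3% for control RNA. limma 3.58.1 in R 4.3.3 fitted 1 mean per group over 8 arrays, with p-values adjusted over all genes (Benjamini-Hochberg, threshold 0.05); the fit was tested on simulated data. Replicates were separate experiments. Deviations of same-numbered arrays correlated between groups at r from -0.06 to 0.47, not all above 0.1, so no replicate block was used in the values reported.

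Members and gene lists were chosen with earlier results of these data known. Members named were those called (up to 10 a direction in an effect, 5 in a difference), the 4 largest values where fewer than 4 were called, all paralogs and a fixed set (Rps6, Rps3, Rps19, Rpl13a, Rpl5, Rpl11, the stalk proteins, Rpsa, Rack1, Myc and Eif4ebp1). From other lists up to 4 called genes were named in a group. Rpl21, Rpl24, Rps15a, Larp1 at 3.5 h, the 48 h values of Rpl41 and the dose difference of Rps3a1 fall outside this rule. They were named after their values were seen. One list of translation genes is not reported here.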

Additional observations from a re-analysis of the deposited data

Results flagged for a closer look

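The effect of the high dose differed between times in 7 ribosomal protein genes, by the test of 48 h minus 3.5 h (limma adjusted p under 0.05). The differences on the log2 scale were 2.49 for Rps3a1, 2.25 for Rps7, 2.02 for Rpl5, 1.92 for Rps6 and 1.66 for Rpl22, all higher at 48 h, and -1.43 for Rpl7l1, lower at 48 h; Rps15a (1.64) is the seventh. In the matched link slide and time cannot be told apart. The 48 h columns equal the ratios of their best-matching files within 0.01 for over 99.5% of probes above background in both channels. The 3.5 h columns do so for 3.96% to 14.2%. In the deposited values time and the making of the columns therefore cannot be told apart either. Groups of 2 arrays were too small to look for an array far from the others.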

How the results depend on the processing

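With 2 arrays a group, leaving out array 1 or array 2 gave 0 to 12 members called at 3.5 h with the high dose (medians -1.11 to -0.15), and 0 at 48 h and for the time difference; the array left is then assumed to vary like the other groups. Members called with the high dose at 48 h, at 3.5 h and in the time difference, 5, 9 and 7 as reported, came to 3, 5 and 3 without the background filter, 9, 21 and 19 with the strict filter (above background in both channels on all 8 arrays), 11, 24 and 21 with loess of the matched files, 25, 74 and 13 with their median centring, and 0, 0 and 0 with files as recorded. With the processed signals of matched files 14 and 11 were called at 3.5 h and in the time difference, with only the arrays compared 3 and 4 at 48 h and 3.5 h, and with the mean of all probes 4 in the time difference. At 3.5 h with the low dose loess gave 1 and median centring 17. The shares of all genes called under these settings are not given beside these counts, so the counts show only how far the calls depend on the processing. Family medians for the high and low dose under median centring were -0.57 and -0.56 at 48 h and -1.45 and -0.86 at 3.5 h, and with files as recorded -0.091 and -0.25 at 48 h. Signs turned with files as recorded for Rps3a1 at 3.5 h (0.036) and Rpl5 at 48 h (-0.37) with the high dose, and in the time difference for Rpl22 (-0.33), Rpl5 (-0.66), Rpl7l1 (0.24), Rps3a1 (-0.73), Rps6 (-0.55), Rps7 (-0.55) and Rps15a (-0.39), and with median centring for Rps3 at 3.5 h (-0.68). The cause of these changes was not tested.

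The replicate number as a block gave 5, 8 and 7 calls with the high dose at 48 h, at 3.5 h and in the time difference; Rpl12 (adjusted p = 0.0544) and Rps2 (0.0558) no longer passed, Rplp0 at 48 h did, and the block changed no other call among the ribosomal protein genes named. Added after seeing the data, leaving out low dose, 3.5 h, array 1 from every fit gave 5, 8 and 7 calls. In the fit as reported, every probe lay on the same side of 0 for 4 of 5 called members at 48 h. The same held for 8 of 9 at 3.5 h and 7 of 7 in the time difference. These counts include members with only 1 probe, which meet this by definition. Only 3 of the called members at 48 h, 7 at 3.5 h and 4 in the time difference had other probes. Centring the table and the trended robust fit kept each count within 1.5 times.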
